A study of Homo sapiens with 6 samples.

Results

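The 47 genes described here act in mitosis and cytokinesis, and they were chosen by name from a list of mitotic entry factors, proliferation markers, spindle proteins, subunits and partners of the anaphase-promoting complex (APC/C), motor proteins, cytokinesis proteins and condensin subunits. All 47 had a probe set among the 39261 named probe sets of the array. The choice went by gene names and used no measured value as a criterion, but earlier results of these data were known when it was made. The arrays were made from RNA of MIA-PaCa2 cells, an established human line of pancreatic ductal adenocarcinoma (PDAC). The cells of 3 arrays were lipotransfected with the AllStars Negative Control siRNA (NC), and the cells of 3 further arrays with siH19-2, an siRNA against the long noncoding RNA H19. The dose was 20 µg according to the labels and 50 nM according to the methods of the study, which elsewhere gives RNA isolation for the arrays at 24 h after transfection. Arrays of a second H19 siRNA were not analysed here, so every value below belongs to 1 siRNA in 1 cell line.

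Entry into mitosis is driven by the kinase CDK1 bound to cyclin A or cyclin B, which CDC25 phosphatases activate and the kinases WEE1 and PKMYT1 restrain. The APC/C is a ubiquitin ligase that, with its activators CDC20 and FZR1, marks cyclins and securin for destruction and so starts anaphase and mitotic exit. Kinesins are motors that move along microtubules to build the spindle and separate chromosomes, and condensin compacts the chromosomes. Transcripts of many of these genes peak in G2 and M phase, and cell cycle homology regions and CCAAT boxes in their promoters are known for this control. High levels of many of them are used as signs of proliferation in tumors.

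On the arrays, the differences of the mitotic genes after transfection with siH19-2 were small. Of the 47 genes, 3 fell and 3 rose at an adjusted p under 0.05 from limma, and 41 did not pass. NCAPH, NUSAP1 and FBXO5 were lower, whereas NCAPD2, KIF20A and CDC23 were higher. These calls rested on all 6 arrays together. Without siH19-2 replicate 3 only NCAPD2 was called, while 1078 of all named probe sets still passed instead of 2067. Without any one of the other 5 arrays 0 of the 47 genes were called, while 464 to 786 of all named probe sets still passed. The log2 difference siH19-2 minus NC ranged from -0.25 to 0.22, and the median over the 47 genes was -0.01. The difference lay below 0 in 25 genes and above 0 in 22, of which 5 turned below 0 with cyclic loess scaling. Its size was under 0.1 in 30 genes and under 0.2 in 42. The 95% confidence intervals of the single genes from limma all lay between -0.36 and 0.30, so that the farthest bound was a 1.29-fold change. These intervals were not widened for the number of genes.

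Promoters of the 6 called genes are shown because these genes moved in both directions, so that their start regions can be read side by side. The sequences are RefSeq windows of GRCh38.p14, from 250 bases before to 50 bases after the start, written 5′ to 3′ on the strand of the gene, with the first listed start where a gene has several. Capitals mark the letters of the cell cycle homology region (TTTGAA, or TTCAAA on the other strand, and TTCGAA) and of the CCAAT box (CCAAT, or ATTGG on the other strand). Such a match is a description of letters, not a site, and matches of both kinds shared bases in 1 of the matched windows of the 47 genes.
NCAPH (chr2:96335516-96335815, plus strand): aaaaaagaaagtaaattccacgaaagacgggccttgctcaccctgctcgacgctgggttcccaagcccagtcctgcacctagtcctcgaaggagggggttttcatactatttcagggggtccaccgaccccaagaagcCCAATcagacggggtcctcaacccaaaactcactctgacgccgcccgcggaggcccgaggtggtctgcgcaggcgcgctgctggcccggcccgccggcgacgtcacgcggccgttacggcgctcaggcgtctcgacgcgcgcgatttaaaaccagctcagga
NUSAP1 (chr15:41332631-41332930, plus strand): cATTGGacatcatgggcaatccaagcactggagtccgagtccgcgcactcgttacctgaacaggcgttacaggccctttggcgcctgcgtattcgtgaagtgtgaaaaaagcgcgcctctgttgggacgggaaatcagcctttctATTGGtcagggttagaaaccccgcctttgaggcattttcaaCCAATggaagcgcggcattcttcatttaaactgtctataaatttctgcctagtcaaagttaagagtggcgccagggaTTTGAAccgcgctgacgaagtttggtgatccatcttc
FBXO5 (chr6:152983530-152983829, minus strand): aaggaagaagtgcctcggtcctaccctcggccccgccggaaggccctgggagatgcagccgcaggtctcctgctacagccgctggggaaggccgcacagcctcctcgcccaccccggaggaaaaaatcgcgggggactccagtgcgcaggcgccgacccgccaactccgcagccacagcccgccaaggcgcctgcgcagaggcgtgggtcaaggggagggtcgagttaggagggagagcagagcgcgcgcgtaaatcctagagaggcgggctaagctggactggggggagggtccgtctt
NCAPD2 (chr12:6493852-6494151, plus strand): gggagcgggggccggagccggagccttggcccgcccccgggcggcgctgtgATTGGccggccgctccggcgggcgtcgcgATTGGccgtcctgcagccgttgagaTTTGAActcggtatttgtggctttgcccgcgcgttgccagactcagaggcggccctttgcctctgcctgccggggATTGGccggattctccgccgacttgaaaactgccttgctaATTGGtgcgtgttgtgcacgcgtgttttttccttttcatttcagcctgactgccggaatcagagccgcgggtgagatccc
KIF20A (chr5:138178862-138179161, plus strand): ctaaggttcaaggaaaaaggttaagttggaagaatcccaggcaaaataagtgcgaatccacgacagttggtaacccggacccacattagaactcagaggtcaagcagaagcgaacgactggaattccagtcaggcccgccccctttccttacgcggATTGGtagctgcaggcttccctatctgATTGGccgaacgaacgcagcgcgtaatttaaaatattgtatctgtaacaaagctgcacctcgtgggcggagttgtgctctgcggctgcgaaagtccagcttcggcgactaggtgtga
CDC23 (chr5:138213274-138213573, minus strand): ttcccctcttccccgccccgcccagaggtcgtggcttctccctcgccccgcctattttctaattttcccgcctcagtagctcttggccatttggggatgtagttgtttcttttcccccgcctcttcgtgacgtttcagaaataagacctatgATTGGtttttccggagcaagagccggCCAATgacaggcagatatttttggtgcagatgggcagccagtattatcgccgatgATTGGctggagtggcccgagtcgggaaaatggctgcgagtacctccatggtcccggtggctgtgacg

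The share of called mitotic genes was 12.8%, compared with 5.26% of all named probe sets (2.63% lower and 2.64% higher). The mitotic genes gave strong signals, however, and 81.5% of all named probe sets were dimmer than the dimmest of them. Among the 7174 probe sets with a mean log2 signal within the range of the mitotic genes (8.15 to 12.29), 17.5% were called, 8.06% lower and 9.41% higher. Against this background the 12.8% of the mitotic genes was no excess. At an unadjusted p under 0.05, 8 genes were lower and 7 higher, 15 in all, compared with 20.3% of all named probe sets and 44.2% of those in the same signal range. The median size of the difference was 0.068 for the mitotic genes, 0.096 for the probe sets in the same signal range and 0.076 for all. The comparison with the same signal range was added after the values had been seen.

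**Figure D1:**
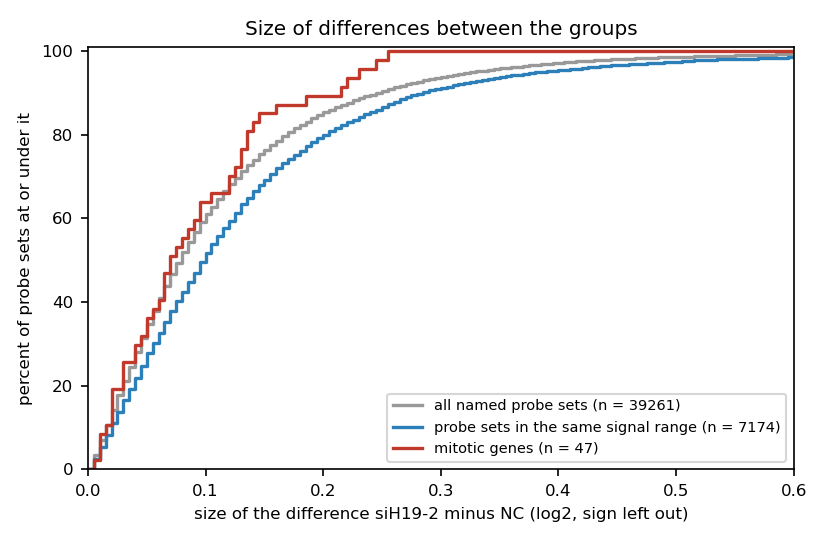
Size of the log2 difference between siH19-2 and NC, with the sign left out (x axis), against the percent of probe sets at or under that size (y axis), for all named probe sets, the 7174 probe sets in the same signal range and the 47 mitotic genes. The curve of the mitotic genes reaches 100 percent at 0.255, whereas the other curves go on beyond the plotted range.

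The 3 siH19-2 arrays lay entirely below the 3 NC arrays in 14 of the 47 genes and entirely above them in 13. Over all named probe sets these shares were 9.98% below and 18.3% above, and in the same signal range 22.7% and 33.3%. With 3 arrays against 3, an exact permutation test of a single gene cannot give a p below 0.1, and each gene without overlap of the groups had this p (two-sided). Whether the 3 arrays of a group came from separate cultures is not stated for the arrays, and the p-values may therefore measure technical spread only. Within the siH19-2 group, replicate 3 was the array farthest from the other two in 33 of the 47 genes (70.2%), highest in 18 and lowest in 15 of them. In the same signal range this share was 53.8%, and over all named probe sets it was 41.7%. In RNA from whole cultures, fewer cells in mitosis and less RNA of these genes per cell cannot be told apart.

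**Figure D2:**
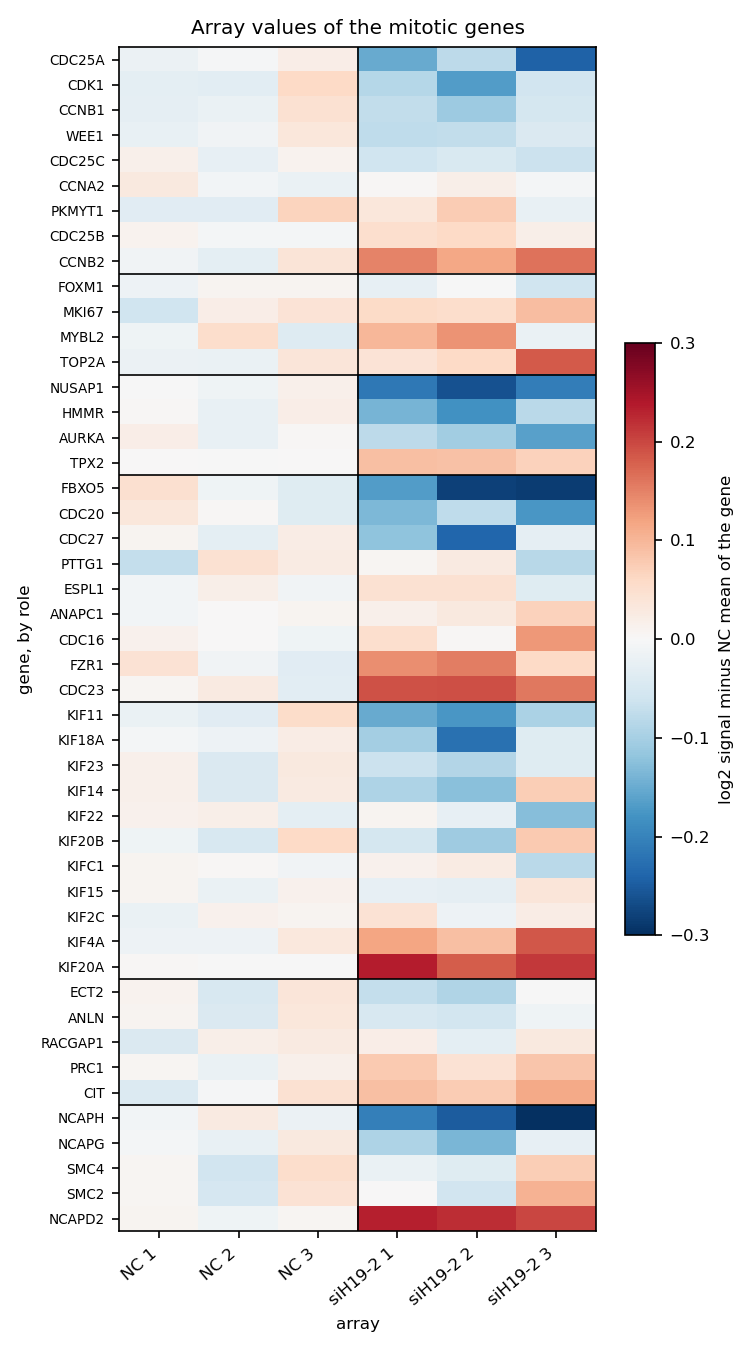
Log2 signal of each mitotic gene (rows, by role) on each array (columns) minus the NC mean of the gene, from blue (lower) to red (higher). Uniform blue or red across the siH19-2 columns appears, among others, in NCAPH, NUSAP1 and FBXO5 (blue) and in NCAPD2, KIF20A and CDC23 (red), and siH19-2 replicate 3 departs from the other siH19-2 arrays in genes such as KIF14, KIF20B and TOP2A.

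The NC arrays had a mean H19 signal of 7.40 ± 0.04 and the siH19-2 arrays one of 7.10 ± 0.02 on the log2 scale (SD, n = 3 each). The targeted RNA thus fell by 0.30 (limma adjusted p = 0.012), and the call was lost without NC replicate 2 (0.067), NC replicate 3 (0.063), siH19-2 replicate 1 (0.059) or siH19-2 replicate 2 (0.053). Of the 6 markers of the line, VIM was brightest (mean log2 signal 13.1) and EPCAM dimmest at 4.52, below the median of all probe sets (6.16). KRT19 was the line marker that was called, with a log2 difference of -0.40 (limma adjusted p = 0.032, and 0.040 to 0.12 without one array). The 16 markers of leukocytes, endothelium, acini, islets and fibroblasts had mean signals from 4.56 (PTPRC) to 7.99 (INS). Of these 16, 7 lay above the median of all probe sets. None of the 16 was called, and their average signal was 6.05 to 6.09 on the NC arrays and 6.07 to 6.11 on the siH19-2 arrays.

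**Figure D3:**
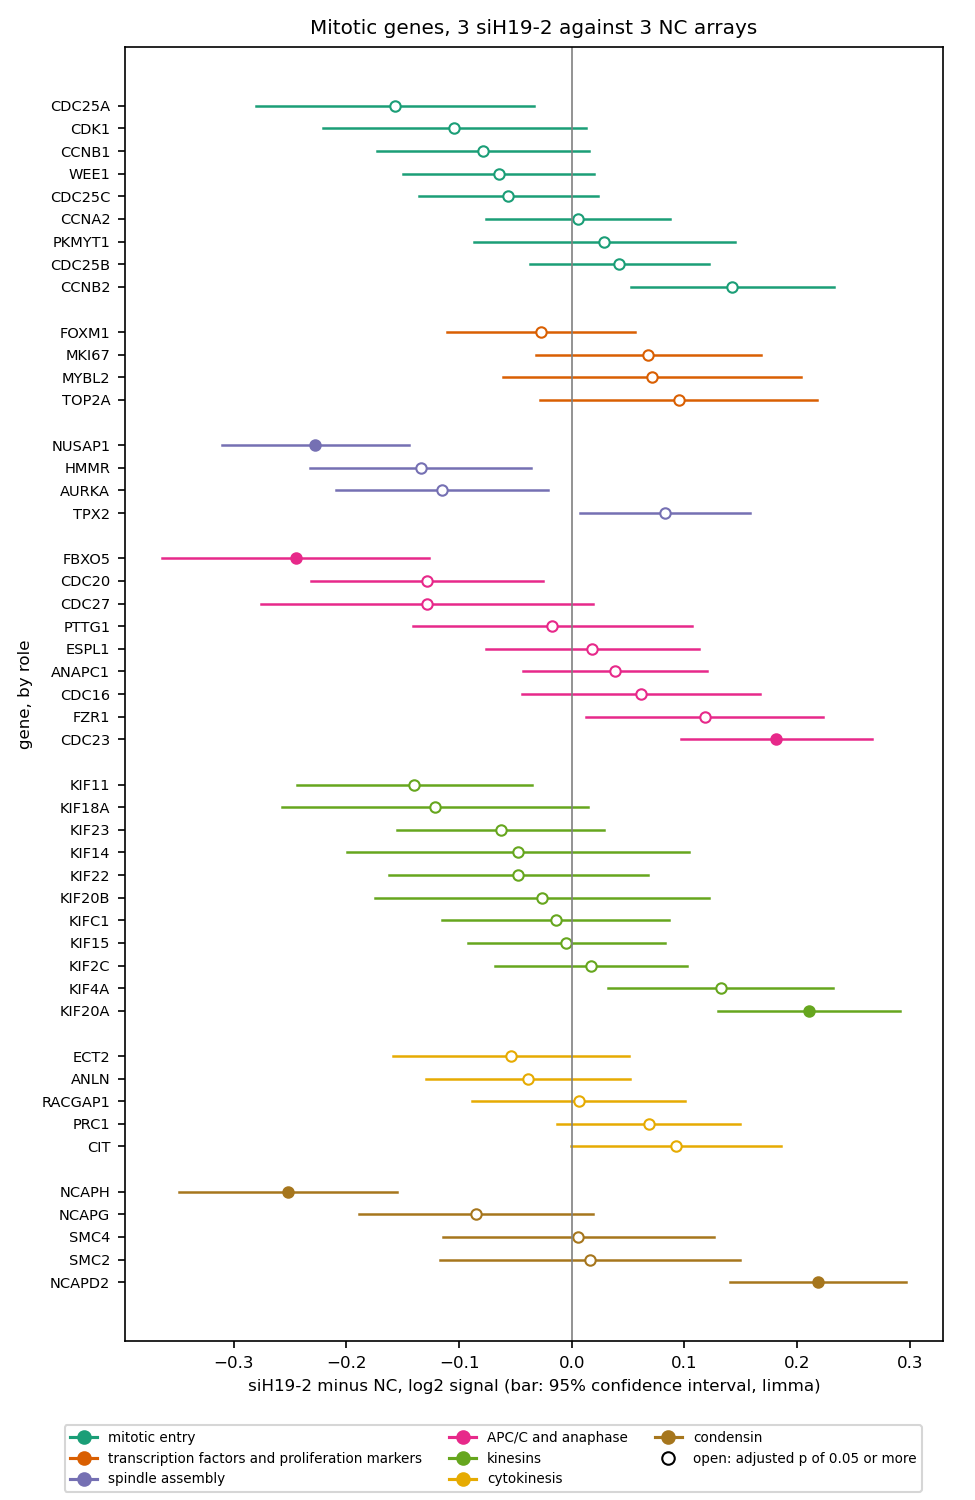
Difference siH19-2 minus NC in log2 signal (x axis) for the 47 mitotic genes (y axis, by role), with points for the estimates, filled at an adjusted p under 0.05 from limma, and bars for the 95% confidence intervals. The filled points lie at -0.25 to -0.23 and at 0.18 to 0.22, and 32 of the 47 intervals include 0.

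None of the 9 genes of mitotic entry passed the test. CCNB1, cyclin B1, had log2 signals of 11.29, 11.30 and 11.37 on the NC arrays and 11.24, 11.21 and 11.27 on the siH19-2 arrays. The siH19-2 arrays were all lower, by a difference of -0.08 (standard error, SE, 0.038, limma adjusted p = 0.32). CCNB2, cyclin B2, had 9.32, 9.30 and 9.37 in NC and 9.48, 9.45 and 9.49 in siH19-2. Here the siH19-2 arrays were all higher, with a difference of 0.14 and an adjusted p of 0.095, which became 0.024 when probe sets dimmer than the median were left out and 0.027 with an intensity trend and robust prior. The log2 ratio of CCNB2 to CCNB1 within an array went from -1.99 ± 0.01 in NC to -1.77 ± 0.004 in siH19-2 (SD, n = 3 each). This pair was picked after the values were seen, and its genes differed in opposite directions without overlap of the groups. The p of 0.1 from the exact permutation test of the ratio (two-sided) was therefore fixed in advance and adds no evidence. CCNA2, cyclin A2, was at 10.75 in both groups (difference 0.01, 95% confidence interval -0.08 to 0.09), a sign that turned in 3 of the alternative settings.

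CDK1, the kinase that these cyclins activate, was at 9.41, 9.41 and 9.50 on the NC arrays and at 9.35, 9.27 and 9.38 on the siH19-2 arrays, without overlap of the groups. Its difference was -0.10 (95% confidence interval -0.22 to 0.01, adjusted p = 0.30 from limma). Of the phosphatases that activate it, CDC25A had the largest difference of the mitotic entry genes, -0.16 (adjusted p = 0.16), with siH19-2 arrays at 8.44, 8.51 and 8.35 below NC arrays at 8.57, 8.59 and 8.61. CDC25B had a difference of 0.04 and CDC25C of -0.06. The inhibitory kinases WEE1 and PKMYT1 had differences of -0.06 and 0.03.

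The transcription factors FOXM1 and MYBL2, which drive genes of G2 and M phase, had differences of -0.03 and 0.07, with adjusted p-values of 0.71 and 0.52 from limma. MKI67, the gene of the proliferation marker Ki-67, had log2 signals of 11.02, 11.10 and 11.12 in NC and 11.13, 11.13 and 11.17 in siH19-2. All siH19-2 arrays were above the NC arrays, and the difference of 0.07 (95% confidence interval -0.03 to 0.17) did not pass (adjusted p = 0.42). TOP2A, topoisomerase II alpha, which untangles DNA before chromosomes separate, had a difference of 0.09 (adjusted p = 0.36), with siH19-2 replicate 3 at 11.73 above the other siH19-2 arrays at 11.58 and 11.60.

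Of the 4 spindle assembly genes, NUSAP1 fell and 3 did not pass. NUSAP1, which binds and bundles spindle microtubules, had log2 signals of 11.02, 11.01 and 11.04 in NC and 10.81, 10.76 and 10.82 in siH19-2. The groups were apart, and 85.4% of the NC signal was left (95% confidence interval 80.6% to 90.5%). NUSAP1 thus fell by 0.23 in log2 signal (SE 0.034, limma adjusted p = 0.022), a call that was lost without any one array, at 0.051 to 0.10. Its promoter window above holds letters of the cell cycle homology region 1 time and of the CCAAT box 3 times. HMMR, a hyaluronan receptor that also binds the spindle, and the kinase AURKA had differences of -0.13 and -0.12 (adjusted p = 0.14 and 0.17). TPX2, the activator of AURKA, had the opposite sign, with 11.60 on every NC array and 11.67 to 11.69 on the siH19-2 arrays. Its difference of 0.08 had an adjusted p of 0.21 from limma and 0.015 by the methods' t-test, here with Benjamini-Hochberg adjustment in place of the Bonferroni-Holm correction that the methods name.

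Among the 9 genes of the APC/C and anaphase, FBXO5 fell, CDC23 rose and 7 did not pass. FBXO5, the inhibitor EMI1 that holds the APC/C inactive before mitosis, had log2 signals of 8.54, 8.47 and 8.45 in NC and 8.32, 8.21 and 8.20 in siH19-2. All siH19-2 arrays were lower, with 84.4% of the NC signal left (95% confidence interval 77.7% to 91.6%). FBXO5 fell by 0.24 (SE 0.048, limma adjusted p = 0.047), and the adjusted p was 0.067 to 0.16 without one array and 0.074 by the methods' t-test with the same Benjamini-Hochberg adjustment. Its window holds neither kind of letters.

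CDC23, a subunit of the APC/C that helps to bind substrates and activators, had 10.30, 10.32 and 10.26 in NC and 10.48, 10.49 and 10.45 in siH19-2. All siH19-2 arrays were higher, at 113% of the NC signal (95% confidence interval 107% to 120%). Its log2 difference was 0.18 (SE 0.035, limma adjusted p = 0.044), with 0.078 to 0.15 without one array and 0.060 after cyclic loess scaling. Its window holds CCAAT letters 3 times.

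The other subunits of the APC/C did not pass, with differences of -0.13 for CDC27 (adjusted p = 0.30), 0.06 for CDC16 and 0.04 for the scaffold ANAPC1. The activators CDC20 and FZR1 had opposite signs without overlap of the groups. CDC20, which starts anaphase, was at 11.94, 11.91 and 11.87 in NC and 11.77, 11.83 and 11.73 in siH19-2 (difference -0.13, adjusted p = 0.17). FZR1, which keeps the APC/C active in late mitosis and G1, was at 8.94 ± 0.04 in NC and 9.06 ± 0.05 in siH19-2 (n = 3 each, SD), with a difference of 0.12 (adjusted p = 0.20). Securin, PTTG1, and the protease separase, ESPL1, which securin inhibits, had differences of -0.02 and 0.02.

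Of the 11 kinesin genes, KIF20A rose and 10 did not pass. KIF20A, a motor that brings the chromosomal passenger complex to the midzone of the spindle, had a log2 signal of 11.06 on each of the 3 NC arrays and of 11.30, 11.24 and 11.27 on the siH19-2 arrays. This was 116% of the NC signal (95% confidence interval 109% to 122%). Its log2 difference was 0.21 (SE 0.033, limma adjusted p = 0.025, and 0.064 to 0.11 without one array). In the reference annotation KIF20A and CDC23 lie on opposite strands and share 74 bases where their ends meet. Whether probes of either gene lie in the shared bases is not given in the sources used here.

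KIF11, the motor that pushes the spindle poles apart, was at 10.32, 10.30 and 10.39 in NC and 10.19, 10.16 and 10.24 in siH19-2. Its difference was -0.14 (limma adjusted p = 0.14), and without the dimmer probe sets the adjusted p was 0.046. KIF4A, a chromosome-bound kinesin that also acts at the midzone, had a difference of 0.13 in the other direction (adjusted p = 0.15, and 0.047 among the brighter probe sets). KIF18A, which limits chromosome movements at the metaphase plate, had a difference of -0.12 (adjusted p = 0.29). The differences of KIF23, the motor of centralspindlin, KIF14, which works with citron kinase, and the chromosome-bound KIF22 were -0.06, -0.05 and -0.05. KIF20B, the minus-end-directed KIFC1, KIF15 and the microtubule depolymerase KIF2C were within 0.03 of 0, at -0.03, -0.01, -0.005 and 0.02. The sign of these 4 genes turned in at least 1 alternative setting.

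None of the 5 cytokinesis genes passed. PRC1, which bundles the microtubules of the midzone, and CIT, the citron kinase, had differences of 0.07 and 0.09 without overlap of the groups (adjusted p = 0.32 and 0.25 from limma). ANLN, an anillin of the contractile ring, was at 12.31 ± 0.04 in NC and 12.27 ± 0.02 in siH19-2 (n = 3 each, SD), a difference of -0.04. ECT2, which activates the GTPase RHOA at the cleavage site, and RACGAP1, the partner of KIF23 in centralspindlin, had differences of -0.05 and 0.01, the latter with a sign that turned under cyclic loess scaling.

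Condensin held the largest difference in each direction among the 47 genes. NCAPH, the subunit that closes the condensin I ring, had log2 signals of 9.65, 9.68 and 9.64 in NC and 9.45, 9.41 and 9.36 in siH19-2. Every siH19-2 array was below the NC arrays, and 84.0% of the NC signal was left (95% confidence interval 78.6% to 89.8%). NCAPH fell by 0.25 (SE 0.039, limma adjusted p = 0.025, and 0.060 to 0.11 without one array).

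NCAPD2, another subunit of condensin I, had 11.32, 11.30 and 11.32 in NC and 11.55, 11.54 and 11.52 in siH19-2. Every siH19-2 array was above the NC arrays, at 116% of the NC signal (95% confidence interval 110% to 123%). NCAPD2 had a log2 difference of 0.22 (SE 0.032, limma adjusted p = 0.020). The call held without siH19-2 replicate 3 (0.046) and was lost without any other array, at 0.073 to 0.096. The log2 ratio of NCAPD2 to NCAPH within an array went from 1.68, 1.62 and 1.68 in NC to 2.10, 2.13 and 2.16 in siH19-2. This change of 0.47 restates the opposite differences of a pair picked after the values were seen. Since neither gene had overlap of the groups, the ratio had to separate them. The p of 0.1 from its exact permutation test (two-sided) was thus fixed in advance and adds no evidence. NCAPG, a further subunit of condensin I, had a difference of -0.09 (adjusted p = 0.33), and the ATPases SMC2 and SMC4, common to both condensins, had 0.02 and 0.01, which both turned below 0 under cyclic loess scaling.

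**Figure D4:**
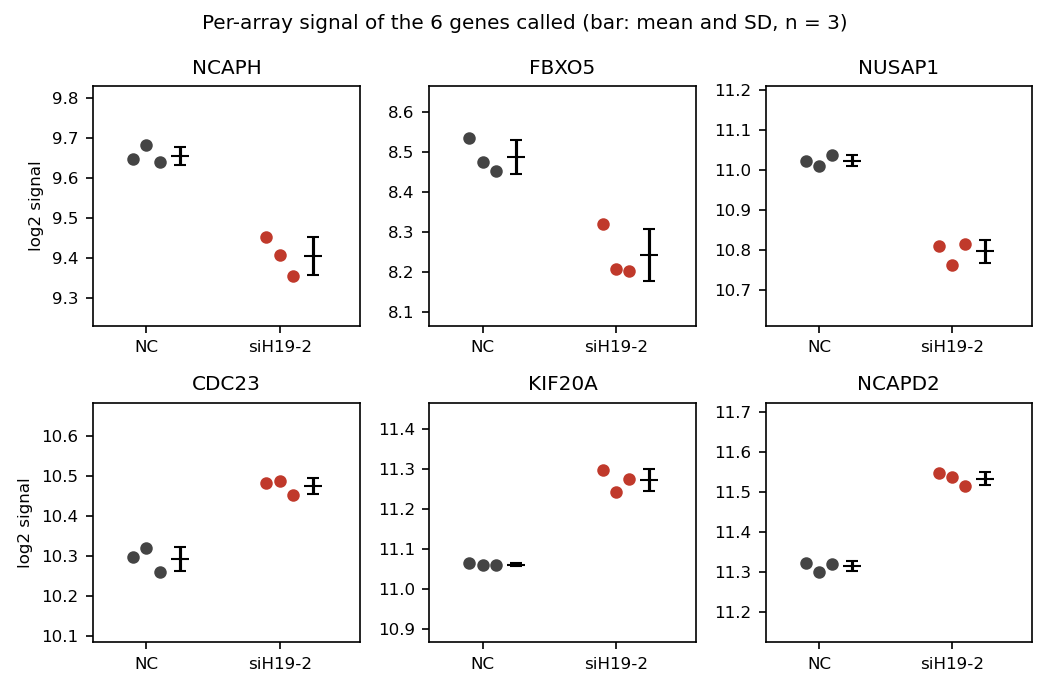
Log2 signal (y axis) on each NC and siH19-2 array (points), with mean and SD (n = 3), for the 6 mitotic genes that were called. Every panel spans the same log2 range, and in each one the groups do not overlap, with NCAPH, FBXO5 and NUSAP1 lower and CDC23, KIF20A and NCAPD2 higher in siH19-2.

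Of the 47 genes, 41 matched a RefSeq promoter window by symbol. Letters of the cell cycle homology region, in either form, were in 27 of these 41 windows (65.9%), against 16.6% of 27305 windows of all genes and 13.5% of 15843 windows of protein-coding genes. CCAAT letters were in 29 of 41 (70.7%), against 35.7% and 36.4%. Both kinds of letters were in 20 of 41 windows (48.8%), against 6.58% and 5.57%. The windows with letters of the cell cycle homology region numbered 9 of 11 for the kinesins, 4 of 4 for cytokinesis, 2 of 2 for spindle assembly, 4 of 5 for condensin, 2 of 3 for the transcription factors and proliferation markers, 4 of 9 for the APC/C and anaphase genes and 2 of 7 for mitotic entry. Among the 6 called genes, NUSAP1 and NCAPD2 held them, 1 gene that fell and 1 that rose, and CCAAT letters were in all of the 6 but FBXO5.

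**Figure D5:**
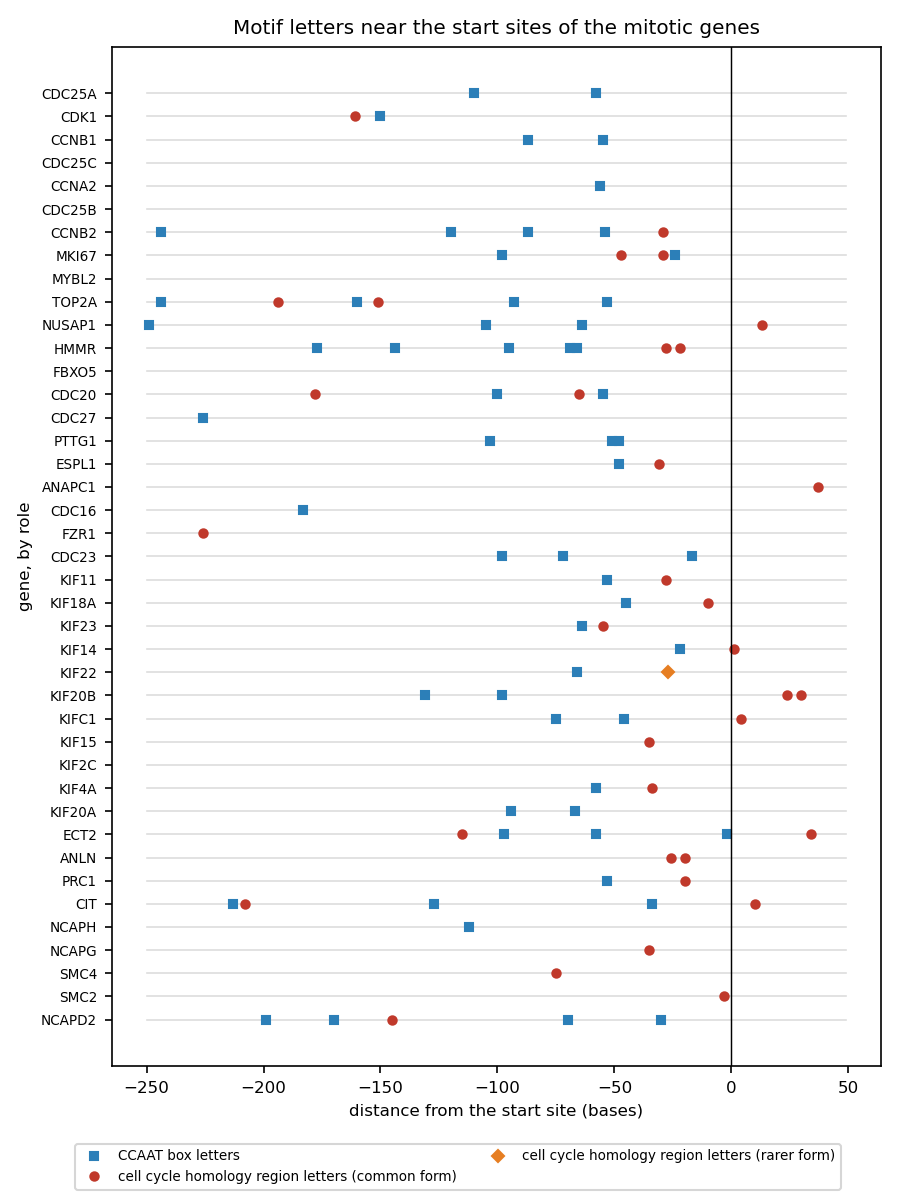
Places of the searched letters (points) in the RefSeq windows of the 41 matched mitotic genes (y axis, by role), as distance of the first matching base from the start site in bases (x axis). Letters of the cell cycle homology region had a median distance of -29 and CCAAT letters of -75, so that the former lay nearer to the start by this median.

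Several of the mitotic genes have copies, taken here by symbol, whose RNA or probes may share signal. How alike their sequences are was not examined. Of 12 copies on the array, 1 was called. CDC27P1 fell by 0.47 (limma adjusted p = 0.046, and 0.061 to 0.14 without one array), whereas CDC27 itself had a difference of -0.13. The dimmer CDC27P2 had a difference of -0.44 and was not called (limma adjusted p = 0.22). The pseudogenes CDC20P1 and NCAPD2P1 had differences of -0.22 (adjusted p = 0.12) and 0.10 (adjusted p = 0.19), with the signs of CDC20 and NCAPD2. NCAPGP1 and NCAPGP2, at -0.15 and -0.06, had the sign of NCAPG. ANAPC1P1, CCNB2P1 and RACGAP1P, at -0.06, -0.02 and -0.02, went against the signs of ANAPC1, CCNB2 and RACGAP1. KIF4B, PTTG2 and PTTG3P had differences of 0.06, 0.01 and -0.03, of which PTTG2 went against the sign of PTTG1. The values of the mitotic genes with copies are uncertain to the extent that probes bind both. In addition, 10 of the 47 genes overlap a protein-coding gene in the reference annotation.

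Other genes of the same processes were read from 6 lists with 96 genes, all measured. Of these, 8 fell and 6 rose (14.6%), and the median difference was 0.05. Of all named probe sets 5.26% were called, and 17.5% of those in the signal range of the mitotic genes. The counts of the single lists were not tested against these shares. None of the 13 other APC/C subunits and ubiquitin-conjugating enzymes passed. Among 19 other mitotic kinases and their partners, NEK7, a kinase of spindle assembly, fell by 0.87 from 9.01 ± 0.04 to 8.14 ± 0.08 (SD, n = 3 each, limma adjusted p = 0.0016), and its call held without any one array. NEK2, a kinase of centrosome separation, fell by 0.19 (adjusted p = 0.047, and 0.056 to 0.17 without one array). BIRC5, survivin, of the chromosomal passenger complex that KIF20A moves, had a difference of 0.31 (adjusted p = 0.010). This call was lost without NC replicate 1 (0.063), NC replicate 3 (0.053) or siH19-2 replicate 1 (0.050). AURKB, INCENP and CDCA8 of the same complex had differences of 0.09, 0.09 and -0.05 and were not called.

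Of 17 other kinesins and spindle proteins, 2 rose and none fell. KIF3B, a kinesin II motor, had a difference of 0.42 (limma adjusted p = 0.0044), which held without any one array. NUMA1, which gathers microtubules at the spindle poles, had 0.25 (adjusted p = 0.013, held without siH19-2 replicate 3 and 0.052 to 0.073 without any other array). Of 15 other cytokinesis genes, 3 fell. CEP55, which organizes abscission, fell by 0.43 (adjusted p = 0.0059), a call that held without any one array. SPAST and SEPT7, a microtubule-severing protein and a septin, fell by 0.32 and 0.35, and their adjusted p-values of 0.043 and 0.041 held only without siH19-2 replicate 3, with 0.11 to 0.14 and 0.090 to 0.14 without any other array.

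Among 14 genes of cohesin, condensin II and their partners, SGO1, which protects cohesion at centromeres, fell by 0.25 (limma adjusted p = 0.029, and 0.074 to 0.11 without one array). Of 18 factors of the MuvB, DREAM and E2F families, which control transcription of cell cycle genes, 2 fell and 3 rose. E2F8 fell by 0.57 from 9.64 ± 0.03 to 9.07 ± 0.02 (SD, n = 3 each, adjusted p = 0.0018). The much dimmer E2F5 fell by 0.73 from 6.88 ± 0.08 to 6.14 ± 0.05 (adjusted p = 0.0026), near the median of all probe sets (6.16). Both calls held without any one array. TFDP1, RBL1 and RBL2 had differences of 0.19, 0.21 and 0.18 (adjusted p = 0.032, 0.037 and 0.040), and each was lost without any one array, at 0.073 to 0.13, 0.070 to 0.14 and 0.085 to 0.15.

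Lists of the neighbouring processes were read in the same way. Of 26 kinetochore and checkpoint genes, BUB3, ZWILCH, SPC25 and CENPI fell (-0.29 to -0.24) and ZW10, a kinetochore protein of the spindle checkpoint, rose by 0.95, with a median difference of -0.02. Of 30 genes of G1/S and replication, CCNE1, CCNE2, MCM10 and GINS1 fell and none rose, with a median of -0.01. The shares of called genes were 19.2% and 13.3%, beside 5.26% of all named probe sets and 17.5% of those in the signal range of the mitotic genes. Their difference from these shares and from the 12.8% of the mitotic genes was not tested. Without one array at a time, ZW10 and CCNE1 kept their calls in each case, and CCNE2 lost it without NC replicate 1 (0.055). MCM10 kept it without siH19-2 replicate 2 or 3 (0.053 to 0.076 otherwise), BUB3, SPC25 and CENPI without 1 array each (0.072, 0.13 and 0.12 at most), and ZWILCH and GINS1 in no case (0.060 to 0.15 and 0.051 to 0.094).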

How the data were processed

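Clariom D arrays of MIA-PaCa2 cells, 3 NC and 3 siH19-2, were grouped by their titles. The authors normalized the deposited values, which are log2 signals for each array and probe set. The methods name limma for this normalization, and the part on statistics names JMP for analysis of the array data without giving the step. How the background was corrected and which annotation release was used is not given in the sources used here. A second table deposited by the authors gave the gene names, beside log2 group means. The authors' own differences and p-values in it were not used. Columns of other samples numbered 0.

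The 39261 named probe sets of 39334 were fitted with limma 3.58.1 in R 4.3.3 (lmFit, then eBayes, with 4 residual degrees of freedom and 1.92 from the prior, no covariate). Tests were two-sided with Benjamini-Hochberg adjustment over all of these probe sets, dim ones included, and a gene was called at an adjusted p under 0.05. The fit was tested on simulated data. The noise there was drawn independently for each array, so the simulation does not bear on shared cultures or batches. Promoter windows came from RefSeq (GRCh38.p14). No build is stated for the array, and the reference was otherwise used for names and overlapping neighbours only.

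All 47 genes were named, with H19, called genes of the lists of other pathway genes (up to 4 for each list with the smallest p), and copies by symbol. RBL2, KRT19 and the genes of the neighbouring lists were named after their values were seen. The genes and lists were chosen with earlier results of these data known. The number of arrays limits the precision. Alternatives tried were median centring, cyclic loess, leaving out dim probe sets, an intensity trend, the methods' t-test (Student's, adjusted by Benjamini-Hochberg), Bonferroni-Holm adjustment of the limma p-values, other thresholds, the unnamed probe sets, the replicate block, and leaving out 1 array at a time.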

Additional observations from a re-analysis of the deposited data

How the results depend on the processing

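The number of called mitotic genes was 6 (3 lower and 3 higher) and the number of called probe sets 2067. Both stayed within 1.5 times after centring each array on its median, after cyclic loess, with the unnamed probe sets and by the methods' t-test with Benjamini-Hochberg adjustment. When probe sets dimmer than the median were left out, 10 genes (5 lower, 5 higher) and 4058 probe sets were called. CCNB2, HMMR, KIF4A and KIF11 were added. The calls made up 21.3% of the mitotic genes and 20.7% of the probe sets kept, so the mitotic genes were near the background. With an intensity trend and robust prior, 9 genes (5 of them higher) and 3449 probe sets were called. That was 19.15% of the mitotic genes and 8.8% of all named probe sets, and the share in the same signal range was not computed. An unadjusted p under 0.05 gave 15 genes (8 lower, 7 higher) and 7963 probe sets. With an absolute log2 difference above 1 as well, it gave 0 genes and 30 probe sets. Bonferroni-Holm gave 0 genes and 43 probe sets. Without one array at a time, 0 to 1 genes were called (0 lower, 0 to 1 higher) and 464 to 1078 probe sets. Whether arrays with the same replicate number were processed together is not given in the sources used here. Over all named probe sets, same-numbered arrays had deviations from the group means that correlated by 0.0060, 0.0099 and 0.0052. Arrays did not correlate best with their own number throughout. These correlations cannot exclude a pairing that touches only some genes. With the replicate block, 0 genes (0 lower, 0 higher) and 74 probe sets were called. The median difference of the 47 genes, -0.014, became -0.032 after cyclic loess, and scaling shifted the median of all probe sets by up to 0.018. Of the 47 genes, 38 kept their direction in every setting that was run. Cyclic loess turned the sign of CCNA2 (-0.012), KIF2C (-0.00040), RACGAP1 (-0.012), SMC2 (-0.0015) and SMC4 (-0.011). Leaving out one array turned the sign of CCNA2 (-0.0049 to 0.020), PTTG1 (-0.052 to 0.016), KIF15 (-0.025 to 0.0060), KIF20B (-0.080 to 0.013), KIFC1 (-0.033 to 0.019), RACGAP1 (-0.016 to 0.024), SMC2 (-0.028 to 0.053) and SMC4 (-0.028 to 0.032). None of these 9 genes was called. The causes were not tested, apart from the smaller number of arrays or of probe sets that some settings have by construction.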
